A study of Mus musculus with 12 samples.

Results

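The genes described here encode the autophagy machinery and its cargo receptors, in BV2 microglial cells with and without Anxa2 knockdown. Autophagy encloses cytoplasm in a double membrane that is delivered to the lysosome. A kinase complex around ULK starts it, a class III phosphatidylinositol kinase and lipid transfer proteins make the phagophore grow, and ubiquitin-like conjugation couples the Atg8 proteins (the LC3 and GABARAP families) to the membrane, where cargo receptors bind them. In microglia the pathway takes part in the turnover of organelles and protein aggregates, and it is known to respond to hypoxia and nutrient loss. The genes were chosen by name, as the 38 genes of a fixed list of the ULK complex, the kinase complexes, the growth, protease and conjugation factors, the Atg8 family, the receptors and the fusion SNARE Stx17. All 38 were among the 21834 genes of the table, and all 38 passed the filter on low counts with the 11626 genes tested.

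BV2 cells are immortalized microglia of the mouse. Its derivatives expressed a control shRNA (shCtrl) or a shRNA against Anxa2 (shAnxa2) from the lentiviral pLKO.1 vector and were kept as stable lines after puromycin selection, so that each line stands for 1 shRNA and all groups carry a vector. Cells were left untreated (CTRL) or put through oxygen and glucose deprivation followed by reoxygenation (OGD/R, a culture model of ischemia and reperfusion), with 1% O2 and no glucose for 4 h. The labels give 12 h of reoxygenation and the study's methods a longer time. RNA-seq gave 3 libraries for each of the 4 groups shCtrl-CTRL, shCtrl-OGDR, shAnxa2-CTRL and shAnxa2-OGDR. The methods describe the libraries of a group as biological replicates, each combining technical replicates of RNA, all from the same stable line, and p-values measure the spread between them. In such bulk RNA, fewer cells using a gene and less RNA per cell cannot be told apart. Values are CPM (read counts of a gene per 1000000 counts of its library), with library sizes scaled by edgeR's TMM method, and because the table holds no gene length, the levels of different genes are not set against each other.

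Total counts ran from 19521877 to 27288843 per library, and the 38 genes together took 2972 to 3733 CPM. Anxa2, the targeted gene, had 172 ± 6.36 CPM without and 279 ± 24.3 CPM with OGD/R in the shCtrl line (SD, n = 3 here and next), and 40.4 ± 4.86 CPM without and 19.6 ± 1.26 CPM with it in the knockdown line. The 10 microglia and macrophage markers summed to 1766 to 1896 CPM in shCtrl-CTRL, 1605 to 1730 CPM in shCtrl-OGDR, 1504 to 1602 CPM in shAnxa2-CTRL and 1684 to 1721 CPM in shAnxa2-OGDR, although Aif1, Cx3cr1, Tmem119 and P2ry12 were low, and the part of this difference in the results was not tested. The neuron, astrocyte and fibroblast lists stayed at or below 1.33 CPM, with Syt1, Snap25, Aqp4 and Dcn at 0 in every library, and the oligodendrocyte list (29.3 to 36.8 CPM) was nearly all Cnp, with Mog at 0. The groups lay crosswise. Over all genes tested, the root mean square log2 difference of group means was smallest, 0.354, between shAnxa2-OGDR and shCtrl-CTRL, followed by shCtrl-OGDR with shAnxa2-CTRL, 0.397, against 0.442 to 0.636 for the other pairs. Sample names and table headers name the same groups, whereas a further label calls every sample with OGD/R a knockdown and every sample without it WT. Anxa2 was low in every library named shAnxa2 and in none named shCtrl, as the names say. Upon OGD/R, at an adjusted p under 0.05, 2555 of all genes were higher in shCtrl and lower in shAnxa2 cells, and 2610 the reverse. Only 42 were higher and 32 lower in both lines. The hypoxia-induced genes Ddit4 and Bnip3, given below, rose in the former line and fell in the latter. Whether the treatment names of the shAnxa2 libraries are in the right order was not tested with these counts, and the other assays of the study on these lines were not analysed here. OGD/R in shCtrl cells compares none of those libraries, although its test takes the estimate of the spread from all libraries together. The other comparisons rest on the shAnxa2 libraries and are given with this limit.

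Most autophagy genes that passed the test upon OGD/R were higher in shCtrl cells and lower in shAnxa2 cells. In shCtrl cells 24 of the 38 genes were upregulated and 3 downregulated, at an adjusted p under 0.05 (quasi-likelihood test of edgeR, adjusted by Benjamini-Hochberg over all genes tested), against 32.4% higher and 31% lower among all genes. In shAnxa2 cells 6 were upregulated and 18 downregulated, against 28.2% and 26.8% of all genes. The 6 were 3, 2 and 3 without shAnxa2-CTRL replicate 2, shAnxa2-OGDR replicate 2 and shAnxa2-OGDR replicate 3. The median log2 fold change of the 38 genes was 0.23 in shCtrl cells and −0.17 in shAnxa2 cells, with medians over all genes of 0.0045 and 0.0044. These comparisons share no library, but their tests share an estimate of the spread. The 3 libraries after OGD/R did not overlap the 3 without it for 29 of the 38 genes in shCtrl cells (68% of all genes) and for 23 in shAnxa2 cells (58.9% of all genes), so these counts lie near the background. Fitted with the shCtrl libraries alone, 24 genes were higher and 4 lower.

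**Figure D1:**
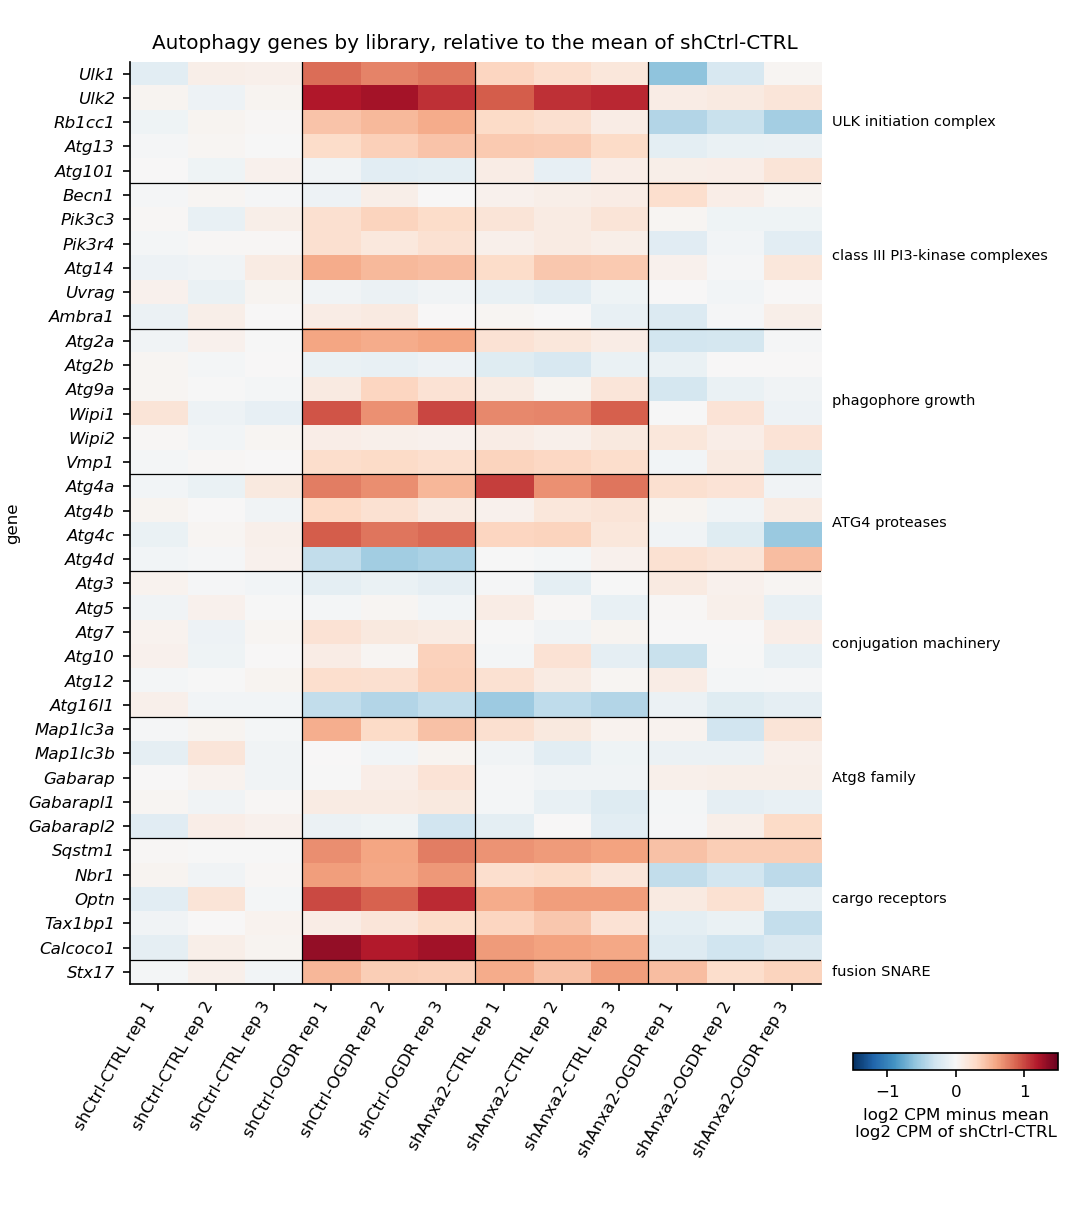
Each cell shows 1 of the 38 autophagy genes (rows, grouped by role) in 1 of the 12 libraries (columns), as log2 CPM minus the mean log2 CPM of the 3 shCtrl-CTRL libraries, from −1.5 (blue) to 1.5 (red). The shCtrl-OGDR and shAnxa2-CTRL columns are mostly red for the kinase, receptor and protease genes, and the shAnxa2-OGDR columns lie near or below the shCtrl-CTRL columns for most genes, with Sqstm1, Stx17, Atg4d and Wipi2 higher.

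Taken by role, all 5 cargo receptors, 4 of the 5 ULK complex genes, 4 of the 6 genes of phagophore growth, 3 of the 4 ATG4 proteases, 3 of the 6 kinase complex genes and Stx17 were upregulated upon OGD/R in shCtrl cells. The conjugation machinery was split, with 2 of its 6 genes higher and 2 lower, and 2 of the 5 Atg8 genes were higher. In shAnxa2 cells the 5 receptors and 4 ULK complex genes were lower after OGD/R, as were 4 genes of phagophore growth, 3 of the kinase complexes and 2 proteases. No conjugation or Atg8 gene was downregulated there, and 2 of each were higher. Of all genes, 32.4% were higher and 31% lower in shCtrl cells, and 28.2% and 26.8% in shAnxa2 cells. The counts of higher conjugation and Atg8 genes thus lie near the background in both lines. Past a log2 fold change of 1 in either direction and an unadjusted p under 0.05 were 2 genes in shCtrl cells (Calcoco1 and Ulk2, against 6.86% of all genes) and 0 in shAnxa2 cells (against 3.8%). In the latter comparison 25 of the 38 genes had an unadjusted p under 0.05 in edgeR, where 55% of all genes had an adjusted p under 0.05. DESeq2 and limma voom also placed 0 genes past the fold limits there.

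**Figure D2:**
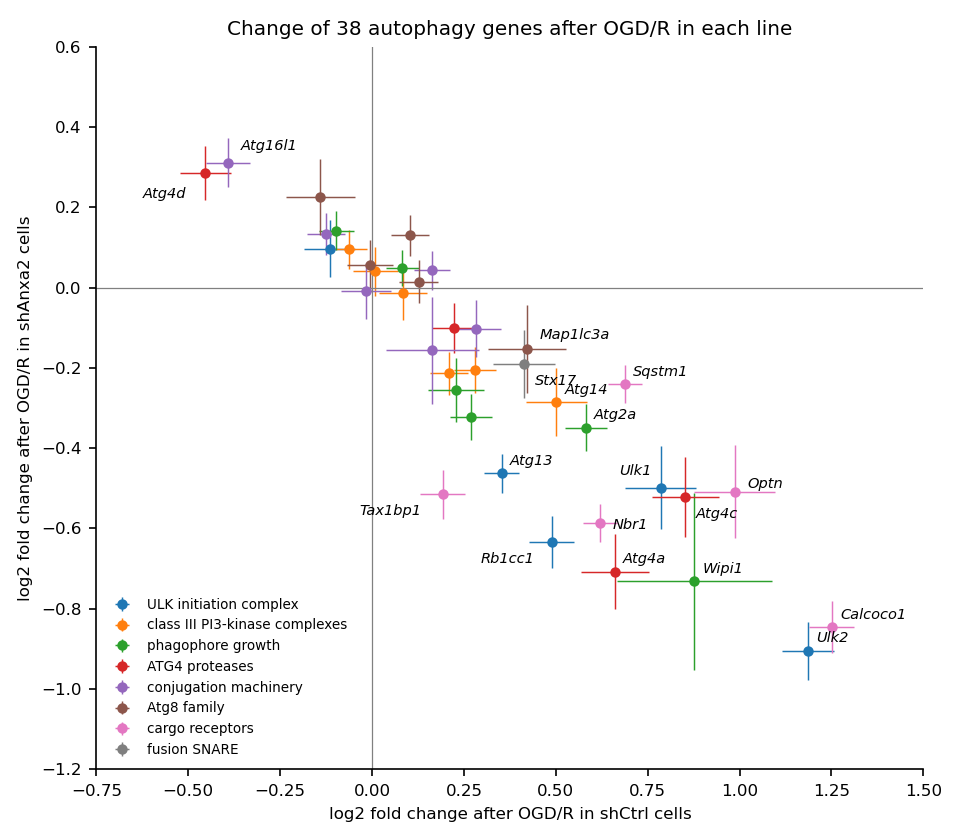
The log2 fold change of each of the 38 genes after OGD/R in shCtrl cells (horizontal axis) is drawn against that in shAnxa2 cells (vertical axis), with standard errors from the edgeR fit and colours for roles. Calcoco1 (1.25 and −0.85) and Ulk2 (1.19 and −0.90) lie farthest to the lower right, and Atg4d and Atg16l1 lie at the upper left.

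Cargo receptors bind ubiquitin or other tags on cargo and Atg8 proteins on the membrane. Calcoco1 (chr15:102615212-102630613, minus strand, mm39), a receptor for the turnover of endoplasmic reticulum and Golgi, was at 31.5, 36.8 and 35.7 CPM in the shCtrl-CTRL libraries and at 86.1, 79.0 and 82.8 CPM after OGD/R, and at 53.7, 52.7 and 51.8 CPM in shAnxa2-CTRL and 30.2, 28.2 and 29.7 CPM in shAnxa2-OGDR. The shCtrl-OGDR libraries were the highest of the 12 and shAnxa2-OGDR the lowest, and neither line's groups overlapped. Its log2 fold change upon OGD/R was 1.25 (SE 0.061, adjusted p = 1.9e-14) in shCtrl cells and −0.85 (SE 0.065, adjusted p = 1.64e-10) in shAnxa2 cells, the largest rise of the 38 genes in the former. Optn, the optineurin gene, a receptor for damaged mitochondria and bacteria, was at 6.56, 8.39 and 7.17 CPM in shCtrl-CTRL, 14.6, 13.5 and 16.0 CPM in shCtrl-OGDR, 10.8, 11.4 and 11.3 CPM in shAnxa2-CTRL and 8.06, 8.58 and 6.79 CPM in shAnxa2-OGDR. All shCtrl-OGDR libraries were again on top, and the shAnxa2-CTRL libraries lay between them and the rest. The fold changes of Optn were 0.99 (SE 0.11, adjusted p = 3.48e-08) and −0.51 (SE 0.12, adjusted p = 0.000677) in the shCtrl and shAnxa2 lines.

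Sqstm1, encoding p62, the receptor of ubiquitinated aggregates, was at 459, 453 and 451 CPM in shCtrl-CTRL and 738, 686 and 772 CPM in shCtrl-OGDR, and at 723, 705 and 689 CPM in shAnxa2-CTRL and 616, 589 and 587 CPM in shAnxa2-OGDR. It was the receptor whose shAnxa2-OGDR libraries all stayed above the shCtrl-CTRL libraries without overlap, and OGD/R changed it by 0.69 (SE 0.047, adjusted p = 7.2e-12) in shCtrl cells and −0.24 (SE 0.047, adjusted p = 0.00013) in shAnxa2 cells. Nbr1, a receptor that acts together with p62, was at 119.8, 113 and 118 CPM in shCtrl-CTRL, 181, 175 and 183 CPM in shCtrl-OGDR, 139, 143 and 133 CPM in shAnxa2-CTRL and 90.6, 96.5 and 88.9 CPM in shAnxa2-OGDR. Its 4 groups did not overlap one another, with shCtrl-OGDR highest and shAnxa2-OGDR lowest. For Nbr1 the log2 fold change was 0.62 (SE 0.047, adjusted p = 4.07e-11) in shCtrl and −0.59 (SE 0.048, adjusted p = 5.29e-10) in shAnxa2 cells. Tax1bp1, a ubiquitin-binding receptor, changed by 0.19 (SE 0.061, adjusted p = 0.00835) in shCtrl cells and by −0.51 (SE 0.062, adjusted p = 1.95e-07) in shAnxa2 cells. Without shCtrl-OGDR replicate 3 its rise was 0.15 and lost its call.

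The ULK complex receives the signals that start autophagy. Ulk1 (chr5:110932354-110957963, minus strand, mm39) and Ulk2 (chr11:61666475-61745899, minus strand, mm39) encode its kinases. Ulk1 was at 23.5, 28.0 and 27.7 CPM in shCtrl-CTRL and 47.1, 43.9 and 45.7 CPM in shCtrl-OGDR, and at 33.0, 31.5 and 29.6 CPM in shAnxa2-CTRL and 17.3, 22.2 and 26.9 CPM in shAnxa2-OGDR. After OGD/R every shCtrl library was higher and every shAnxa2 library lower than the untreated libraries of its line, with a wide spread in shAnxa2-OGDR. The changes were 0.79 (SE 0.096, adjusted p = 1.52e-07) and −0.50 (SE 0.10, adjusted p = 0.000236). Ulk2 was at 20.7, 19.1 and 20.7 CPM in shCtrl-CTRL, 46.3, 48.0 and 43.1 CPM in shCtrl-OGDR, 37.8, 43.0 and 44.1 CPM in shAnxa2-CTRL and 21.8, 22.1 and 22.8 CPM in shAnxa2-OGDR. Its libraries formed a low pair of groups and a high pair, the low pair being shCtrl-CTRL and shAnxa2-OGDR. OGD/R changed Ulk2 by 1.19 (SE 0.071, adjusted p = 6.95e-13) in shCtrl cells and by −0.90 (SE 0.072, adjusted p = 3.39e-10) in shAnxa2 cells, the largest fall of the 38 genes there.

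Rb1cc1, encoding the scaffold FIP200, was at 46.2, 49.7 and 49.1 CPM in shCtrl-CTRL, 64.8, 67.9 and 71.1 CPM in shCtrl-OGDR, 59.2, 56.8 and 52.1 CPM in shAnxa2-CTRL and 35.6, 38.4 and 33.9 CPM in shAnxa2-OGDR. The 4 groups did not overlap, and shAnxa2-OGDR was lowest. It changed by 0.49 in shCtrl cells (SE 0.062, adjusted p = 2.24e-07) and by −0.64 in shAnxa2 cells (SE 0.065, adjusted p = 1.62e-08). Atg13, the adaptor that ties the kinases to the scaffold, was at 182, 188 and 183 CPM in shCtrl-CTRL, 224, 236 and 247 CPM in shCtrl-OGDR, 243, 240.2 and 225 CPM in shAnxa2-CTRL and 167, 173 and 174 CPM in shAnxa2-OGDR. Its shCtrl-OGDR and shAnxa2-CTRL libraries overlapped each other and were above all others. The changes of Atg13 were 0.35 (SE 0.048) and −0.46 (SE 0.049). Atg101, which stabilizes Atg13, was the ULK complex gene that passed the test in neither line, with −0.12 (SE 0.07) and 0.10 (SE 0.071).

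The kinase complexes place a phosphoinositide on the growing membrane. Atg14, the subunit that directs the complex to sites of autophagy, showed their largest change, 0.50 (SE 0.083, adjusted p = 1.21e-05) in shCtrl cells and −0.28 (SE 0.086, adjusted p = 0.00691) in shAnxa2 cells. Pik3c3, the catalytic subunit, followed with 0.28 and −0.20, and Pik3r4, its regulatory partner, with 0.21 and −0.21, all 4 past the test. Becn1 (beclin, 0.0084 and 0.041), its regulator Ambra1 (0.084 and −0.014) and Uvrag, the subunit of the endosomal complex (−0.061 and 0.10), passed the test in neither line.

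Phagophore growth needs lipid delivery and binders of that phosphoinositide. Wipi1, encoding such a binder, had only 25 to 63 counts per library. It was at 1.46, 1.21 and 1.18 CPM in shCtrl-CTRL, 2.46, 2.06 and 2.56 CPM in shCtrl-OGDR, 2.10, 2.12 and 2.38 CPM in shAnxa2-CTRL and 1.28, 1.47 and 1.21 CPM in shAnxa2-OGDR. The low and high groups did not overlap within a line, and the changes of 0.88 (SE 0.21, adjusted p = 0.000887) and −0.73 (SE 0.22, adjusted p = 0.0072) have the largest standard errors of the 38 genes. Wipi2, the binder that brings Atg16l1 to the membrane, had 0.082 (SE 0.045) and 0.048 (SE 0.045) and passed in neither line. Atg2a, encoding a lipid transfer protein, was at 85.3, 92.6 and 88.1 CPM in shCtrl-CTRL, 134, 130.4 and 134 CPM in shCtrl-OGDR, 103, 99.6 and 96.0 CPM in shAnxa2-CTRL and 73.3, 73.8 and 87.6 CPM in shAnxa2-OGDR. The shCtrl-OGDR libraries stood above all others, and OGD/R changed the gene by 0.58 (SE 0.057, adjusted p = 4.06e-09) in shCtrl cells and −0.35 (SE 0.059, adjusted p = 2.32e-05) in shAnxa2 cells. Its paralog Atg2b moved the other way, at −0.10 (adjusted p = 0.0806, not past the test) in shCtrl cells and 0.14 (adjusted p = 0.0155) in shAnxa2 cells, a call lost without shAnxa2-CTRL replicate 2 or shAnxa2-OGDR replicate 2 or 3 (0.11 to 0.12). Vmp1, a membrane protein of the endoplasmic reticulum, rose by 0.27 in shCtrl cells and fell in shAnxa2 cells (−0.32), and Atg9a, the lipid scramblase of the seed vesicles, had 0.23 and −0.25, both past the test. The Atg9a calls were lost without shCtrl-OGDR replicate 2 (0.18) and without shAnxa2-OGDR replicate 1 (−0.20), respectively.

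ATG4 proteases trim new Atg8 proteins and release them from membranes. Atg4c was at 15.5, 16.9 and 17.4 CPM in shCtrl-CTRL, 31.2, 28.8 and 29.9 CPM in shCtrl-OGDR, 20.7, 20.8 and 18.7 CPM in shAnxa2-CTRL and 15.9, 14.6 and 11.3 CPM in shAnxa2-OGDR. The shCtrl-OGDR libraries were highest and no group overlapped its counterpart with or without OGD/R, with changes of 0.85 (SE 0.092, adjusted p = 1.82e-08) and −0.52 (SE 0.099, adjusted p = 9.71e-05). Atg4a was at 24.5, 23.6 and 27.9 CPM in shCtrl-CTRL, 43.1, 41.2 and 35.8 CPM in shCtrl-OGDR, 51.8, 40.8 and 44.2 CPM in shAnxa2-CTRL and 30.0, 29.3 and 24.4 CPM in shAnxa2-OGDR. Here the shAnxa2-CTRL libraries reached the highest values and overlapped those of shCtrl-OGDR. OGD/R changed Atg4a by 0.66 (SE 0.092, adjusted p = 1.12e-06) in shCtrl cells and −0.71 (SE 0.093, adjusted p = 7.56e-07) in shAnxa2 cells. Atg4b, the protease with the broadest substrate range, rose in shCtrl cells by 0.22 (SE 0.061) and did not pass in shAnxa2 cells (−0.10, SE 0.062).

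Atg4d (chr9:21176589-21189068, plus strand, mm39) was the protease that moved the other way, at 48.8, 49.4 and 52.4 CPM in shCtrl-CTRL, 39.0, 34.9 and 36.1 CPM in shCtrl-OGDR, 49.9, 49.0 and 52.4 CPM in shAnxa2-CTRL and 58.7, 57.0 and 69.2 CPM in shAnxa2-OGDR. The shCtrl-OGDR libraries were the lowest and the shAnxa2-OGDR libraries the highest, while the untreated groups overlapped. Its changes were −0.45 (SE 0.069, adjusted p = 4e-06) and 0.29 (SE 0.068, adjusted p = 0.000985), and the latter was 0.19 without shAnxa2-OGDR replicate 3. The span of Atg4d shares 4316 bases with Kri1 on the opposite strand. The library kit named in the labels does not mark strand, so reads from this shared stretch cannot be told apart. Kri1 changed by −0.71 (SE 0.081) in shCtrl cells and by 0.34 (SE 0.081) in shAnxa2 cells. In shAnxa2 against shCtrl, Kri1 had −0.41 without and 0.65 after OGD/R, and Atg4d 0.0065 and 0.75. The part of Kri1 reads in the values of Atg4d was not tested. Among the 38 genes, 7 overlap another gene of the table, of which Sqstm1 (with Mrnip), Becn1 (with Cntd1) and Atg4b (with Thap4) share 750, 10366 and 3365 bases on opposite strands.

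**Figure D3:**
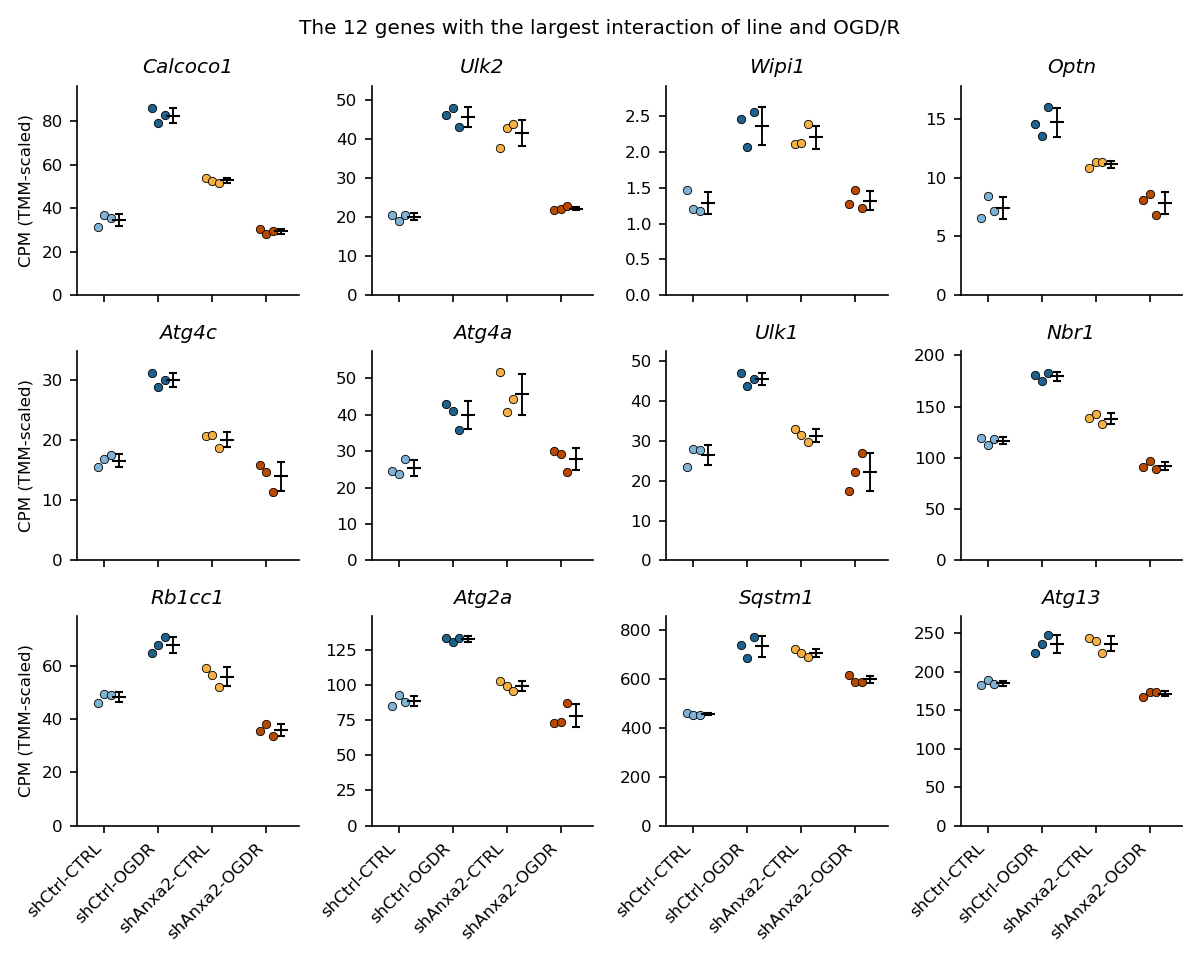
Points show CPM (TMM-scaled, vertical axes from 0) of the 12 autophagy genes with the largest interaction of line and OGD/R in each library, by group, and the bars beside them the mean and SD (n = 3). In every panel the shCtrl-OGDR libraries lie above the shCtrl-CTRL libraries and the shAnxa2-OGDR libraries below the shAnxa2-CTRL libraries, and the vertical axes differ between panels.

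The conjugation machinery acts like a ubiquitin cascade. Atg7, its activating enzyme, rose in shCtrl cells by 0.16 (SE 0.049) and was at 0.043 in shAnxa2 cells, short of the test. Atg12, the ubiquitin-like protein coupled to Atg5, likewise rose in shCtrl cells, by 0.28 (SE 0.07). Atg16l1, which anchors the Atg12 and Atg5 conjugate on the phagophore, moved against the other genes, with −0.39 (SE 0.06, adjusted p = 3.75e-06) in shCtrl cells and 0.31 (SE 0.061, adjusted p = 0.00014) in shAnxa2 cells. Atg3, the conjugating enzyme of the Atg8 proteins, followed Atg16l1 in sign at −0.12 (adjusted p = 0.0405) and 0.13 (adjusted p = 0.0338). Leaving out any 1 shCtrl library or shAnxa2-OGDR replicate 2 ended the Atg3 call in shCtrl cells (−0.14 to −0.10), and shAnxa2-CTRL replicate 2 or shAnxa2-OGDR replicate 1 or 2 did so in the knockdown line (0.091 to 0.13). Atg5 (−0.016 and −0.0077) and Atg10, the conjugating enzyme of Atg12 (0.16 and −0.16), passed in neither line.

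Promoters were searched for binding motifs of transcription factors known to act on autophagy genes. RefSeq windows of build GRCm38.p6, from 250 bases before to 50 bases after an annotated start, were at hand for 32 of the 38 genes. Some genes have several such starts, and a gene was counted when the window of any of them held the motif. The E-box CACGTG, the core of the element bound by TFEB, was present on either strand in 12.5% of these genes (Atg14, Atg3, Atg5 and Atg7) and in 8.09% of all 27025 genes of the promoter table. Its extended form TCACGTGA, which contains the former, was present in Atg3 alone, against 1.12% of all genes. The antioxidant response element TGACNNNGC was present in 15.6% of the 32 genes (Ulk2, Atg13, Map1lc3b, Tax1bp1 and Vmp1) and 14.0% of all genes. The FOXO motif GTAAACA and the ATF4 motif TGATGNAA were in 0 of the 32, against 4.05% and 4.51% of all genes. The stretches around the motif (in capitals) are printed on the strand of the gene. They are given for the 3 conjugation genes with an E-box upstream of an annotated start, and for Ulk2. For Atg7 that start lies within the span of the gene, not at its beginning. Of the 3, Atg3 and Atg7 moved in opposite directions in shCtrl cells and Atg5 did not pass the test. Ulk2 had the largest fall in shAnxa2 cells.
Atg3 (chr16:45158737-45158784, plus strand, GRCm38): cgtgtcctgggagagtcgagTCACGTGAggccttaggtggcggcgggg
Atg7 (chr6:114670944-114670989, plus strand, GRCm38): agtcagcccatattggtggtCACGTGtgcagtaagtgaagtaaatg
Atg5 (chr10:44268305-44268338, plus strand, GRCm38): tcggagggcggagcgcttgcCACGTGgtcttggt
Ulk2 (chr11:61855093-61855129, minus strand, GRCm38): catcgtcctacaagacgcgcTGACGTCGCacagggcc

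Atg8 proteins coat the phagophore and hold the receptors. In each line 2 of their 5 genes passed the test, a different pair in each, against 63.4% of all genes in shCtrl and 55% in shAnxa2 cells. Map1lc3a was at 11.9, 12.3 and 11.8 CPM in shCtrl-CTRL, 17.4, 14.6 and 16.2 CPM in shCtrl-OGDR, 14.2, 13.2 and 12.4 CPM in shAnxa2-CTRL and 12.5, 9.82 and 13.7 CPM in shAnxa2-OGDR. It was highest in shCtrl-OGDR, without overlap with shCtrl-CTRL, and rose there by 0.42 (SE 0.11, adjusted p = 0.00126). Map1lc3b, the LC3 gene most used as an autophagy marker, was at 126, 157 and 134 CPM in shCtrl-CTRL, 138, 135 and 142 CPM in shCtrl-OGDR, 134, 124 and 132 CPM in shAnxa2-CTRL and 129.8, 129 and 146 CPM in shAnxa2-OGDR. The groups overlapped, and its changes upon OGD/R of −0.0057 (SE 0.063) and 0.056 (SE 0.064) did not pass the test. Its whole span of 8400 bases lies within that of Galnt2l on the same strand. How reads from this stretch were assigned is not known, and their part in the values of Map1lc3b was not tested.

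Gabarap was at 285, 295 and 273 CPM in shCtrl-CTRL, 284, 304 and 329 CPM in shCtrl-OGDR, 279.6, 273 and 274 CPM in shAnxa2-CTRL and 300.1, 301 and 303 CPM in shAnxa2-OGDR. It was higher after OGD/R in shAnxa2 cells by 0.13 (SE 0.051, adjusted p = 0.0341), without overlap, and had 0.10 (adjusted p = 0.0794) in shCtrl cells. Gabarapl1, a GABARAP paralog, was at 68.7, 65.0 and 68.3 CPM in shCtrl-CTRL, 73.0, 73.2 and 74.3 CPM in shCtrl-OGDR, 65.8, 62.5 and 59.1 CPM in shAnxa2-CTRL and 65.7, 61.2 and 62.3 CPM in shAnxa2-OGDR. The shCtrl-OGDR libraries were the highest 3 of the 12, with a rise of 0.13 (SE 0.053, adjusted p = 0.0393), and the shAnxa2 groups overlapped. Gabarapl2, also called GATE-16, was at 17.0, 20.5 and 19.96 CPM in shCtrl-CTRL, 17.99, 18.3 and 15.7 CPM in shCtrl-OGDR, 17.3, 19.1 and 17.1 CPM in shAnxa2-CTRL and 18.9, 20.3 and 23.3 CPM in shAnxa2-OGDR. Both pairs of groups overlapped, and the rise in shAnxa2 cells of 0.23 (SE 0.095, adjusted p = 0.0472) was 0.14 without shAnxa2-OGDR replicate 3 and lost its call without any 1 of 8 libraries. The call of Gabarapl1 was lost without shCtrl-CTRL replicate 1 or 2 or shCtrl-OGDR replicate 2 or 3 (0.11 to 0.14), and that of Gabarap without any shAnxa2 library but shAnxa2-CTRL replicate 1 (0.12 to 0.13). Stx17, the SNARE that fuses the closed autophagosome with the lysosome, rose in shCtrl cells by 0.41 (SE 0.085, adjusted p = 0.000171) and had −0.19 (adjusted p = 0.0585) in shAnxa2 cells.

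Without OGD/R, most of the autophagy genes that passed the test were higher in the knockdown line. With 1 shRNA per line, the knockdown and other differences between the lines cannot be told apart. Comparing shAnxa2-CTRL with shCtrl-CTRL sets the lines side by side in untreated cells. It placed 18 of the 38 genes higher and 2 lower, against 29.5% and 29.7% of all genes, with a median log2 difference of 0.13 (0.00073 over all genes) and no overlap for 25 genes (63.6% of all genes). The 5 receptors, 4 of the 5 ULK complex genes, 4 genes of phagophore growth, Atg4a, Atg4c, Atg14, Pik3c3 and Stx17 were higher, and Atg16l1 and Atg2b lower. Ulk2, at 1.05 (SE 0.072, adjusted p = 1.09e-11), was the only 1 of the 38 past the fold limits, which 5.81% of all genes passed. Atg4a (0.84), Wipi1 (0.79), Sqstm1 (0.64), Calcoco1 (0.60) and Optn (0.59) followed, and Atg16l1 was at −0.45. No Atg8 gene passed the test, with values from −0.11 to 0.14. Of the smaller calls, those of Ulk1 (0.17 to 0.24) and Atg4c (0.22 to 0.25) were lost without shCtrl-CTRL replicate 1 or shAnxa2-CTRL replicate 1 or 2, that of Atg2a (0.14) without shCtrl-CTRL replicate 1 or shAnxa2-CTRL replicate 1, that of Pik3c3 (0.12) without shCtrl-CTRL replicate 2 and that of Wipi2 (0.090 to 0.11) without any 1 of 6 libraries.

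After OGD/R, most of the genes that passed the test were lower in the knockdown line than in shCtrl cells. This is the comparison singled out in the description of the series. In shAnxa2-OGDR against shCtrl-OGDR, 24 of the 38 genes were lower and 5 higher, against 34.2% and 33.8% of all genes, with a median of −0.29 (−0.0033 over all genes) and no overlap for 30 genes (69.9% of all genes). Past the fold limits were 4 genes, against 10.2% of all genes. These were Calcoco1 at −1.49 (SE 0.063, adjusted p = 8.93e-16), Atg4c at −1.10 (SE 0.096, adjusted p = 3.14e-10), Ulk2 at −1.04 (SE 0.072, adjusted p = 4.89e-12) and Ulk1 at −1.04 (SE 0.1, adjusted p = 1.86e-09). Nbr1 (−0.96), Rb1cc1 (−0.91), Optn (−0.90), Wipi1 (−0.82) and Atg2a (−0.76) were next. Atg4d (0.75), Gabarapl2 (0.26), Atg16l1 (0.25), Atg101 (0.24) and Atg3 (0.20) were higher. The calls of Atg7 (−0.12 to −0.11) and Atg4b (−0.15) were lost without shCtrl-OGDR replicate 1 or shAnxa2-OGDR replicate 2, that of Atg7 also without shAnxa2-OGDR replicate 1, that of Gabarapl2 without shCtrl-OGDR replicate 3 (0.20) or shAnxa2-OGDR replicate 3 (0.17), and that of Atg10 without any 1 of 6 libraries (−0.33 to −0.21). The comparisons of the lines share no library with each other, but each shares libraries with both comparisons of OGD/R.

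**Figure D4:**
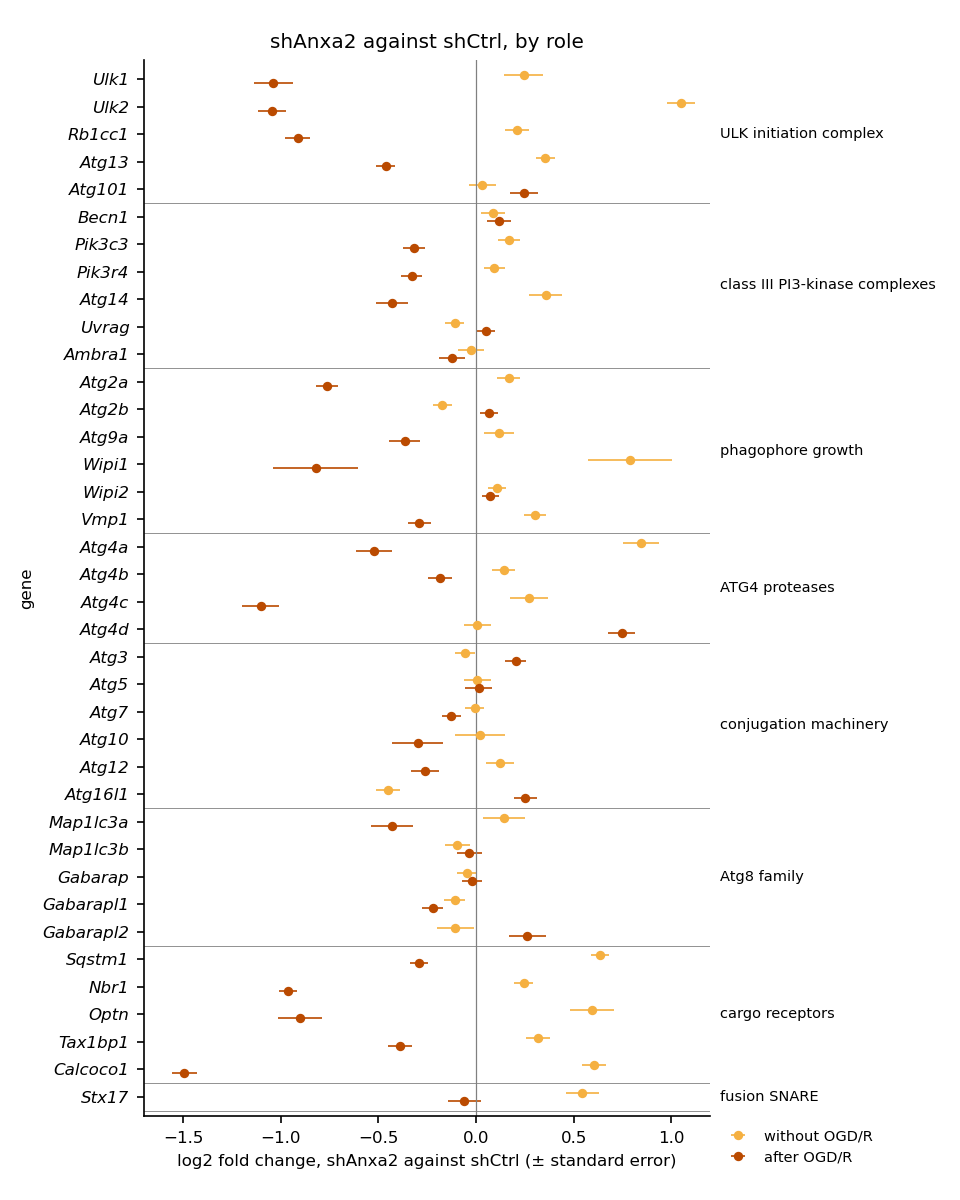
For each of the 38 genes the log2 difference between shAnxa2 and shCtrl is drawn, grouped by role, without OGD/R (orange) and after OGD/R (brown), with standard errors from the edgeR fit. For most genes of the ULK complex, the proteases and the receptors the orange points lie above 0 and the brown points below it, with Atg4d and Atg101 on the other side after OGD/R.

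The interaction of line and OGD/R tests whether the change upon OGD/R differed between the lines. It was negative for 22 of the 38 genes and positive for 6, against 35.1% and 34.9% of all genes. A negative value means a lower change in shAnxa2 than in shCtrl cells, which includes a rise in shCtrl and a fall in shAnxa2 cells. The median was −0.45 (−0.0061 over all genes). Calcoco1 had the largest value, −2.10 (SE 0.089, adjusted p = 6.05e-16), followed by Ulk2 at −2.09 (SE 0.10, adjusted p = 6.57e-15). All 5 receptors were among the 22, with values from −2.10 to −0.71, as were 4 ULK complex genes and 3 proteases. Positive values were found for Atg4d (0.74), Atg16l1 (0.70), Gabarapl2 (0.37), Atg3 (0.26), Atg2b (0.24) and Uvrag (0.16). Higher in shCtrl and lower in shAnxa2 cells upon OGD/R were 18 of the 38 genes (47.4%), compared with 2555 of all genes (22%). The reverse held for 3 genes (7.89%, compared with 22.4%). No gene of the 38 was called in the same direction in both lines. Of all genes, 42 (0.361%) were higher in both lines and 32 (0.275%) lower in both, so none among 38 lies near the background. At an unadjusted p under 0.05 the interaction held 29 of the 38 genes. Of all genes, 70% passed it already at an adjusted p under 0.05, so this count lies near the background. Uvrag lost its call without any library but shCtrl-CTRL replicate 2 and shAnxa2-CTRL replicate 3 (0.12 to 0.16), and Gabarapl2 without shCtrl-CTRL replicate 2 or 3, shCtrl-OGDR replicate 3 or shAnxa2-OGDR replicate 3 (0.27 to 0.32).

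Because the groups lay crosswise, they were also compared crosswise, a choice made after the values were seen. In shAnxa2-OGDR against shCtrl-CTRL, 4 genes were higher (Sqstm1 0.39, Stx17 0.35, Atg4d 0.29 and Wipi2 0.16) and 6 lower, led by Rb1cc1 (−0.42) and Nbr1 (−0.34), against 21.5% and 18.4% of all genes. In shAnxa2-CTRL against shCtrl-OGDR, Atg4d (0.46) was higher and 11 genes were lower, led by Calcoco1 (−0.65), Atg4c (−0.58) and Ulk1 (−0.54), against 22.1% and 22% of all genes. Of the 6, Atg4c lost its call without any 1 of 9 libraries (−0.29 to −0.12), Atg2a without shCtrl-CTRL replicate 2 or shAnxa2-OGDR replicate 1 or 2 (−0.15 to −0.14) and Tax1bp1 without shCtrl-CTRL replicate 3 or shAnxa2-OGDR replicate 3 (−0.17 to −0.12). Of the 11, Map1lc3a lost its call without shCtrl-OGDR replicate 1 or 3 or shAnxa2-CTRL replicate 2 or 3 (−0.28 to −0.21), and Gabarap without shCtrl-OGDR replicate 3 or shAnxa2-CTRL replicate 2 or 3 (−0.14 to −0.095). Libraries did not overlap for 15 and 17 genes, against 49.3% and 52.2% of all genes. Over the 38 genes the root mean square differences of these pairs of groups were 0.176 and 0.243, and those of the other pairs 0.358 to 0.564. Those between replicates were 0.110 to 0.173. The replicate values compare single libraries and the group values means of 3, which vary less, so they are not measured alike. Sqstm1 was thus the receptor gene that stayed above shCtrl-CTRL in every other group.

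Genes upstream of the machinery changed in both directions. Among 35 tested genes of a list on the kinases mTORC1 and AMPK and their regulators, which restrain and start autophagy according to nutrients and energy, 15 were higher and 8 lower upon OGD/R in shCtrl cells, with a median log2 fold change of 0.092, whereas in the knockdown line 8 rose and 13 fell. These are 42.9% and 22.9% of the list in shCtrl cells, against 32.4% and 31% of all genes, and 22.9% and 37.1% in shAnxa2 cells, against 28.2% and 26.8%. Ddit4, an mTORC1 inhibitor induced by hypoxia and stress, had the largest rise in shCtrl cells, 1.57 (SE 0.075, adjusted p = 1.05e-14), and changed by −1.49 (SE 0.077) in shAnxa2 cells. Castor1, an arginine sensor that restrains mTORC1, followed at 0.86 (SE 0.24) and −0.76 (SE 0.25). Mlst8, an mTOR subunit, and Flcn, the folliculin gene, fell upon OGD/R in the control line (−0.80 and −0.36) and rose in shAnxa2 cells (0.58 and 0.47), all 4 past the test. Of 12 transcription factors known to act on autophagy genes, 9 were higher and 1 was lower in shCtrl cells after OGD/R (median 0.31), whereas 1 rose and 7 fell in the knockdown line, against 32.4% and 31% of all genes in the former line and 28.2% and 26.8% in the latter. Tfeb, the factor of lysosomal and autophagy genes, rose by 1.199 (SE 0.068, adjusted p = 2.72e-13) and was at −0.66 (SE 0.073) in shAnxa2 cells, and Ddit3, encoding the stress factor CHOP, was at 1.12 (SE 0.15) and −0.66 (SE 0.16), with all 4 values past the test. Tfec, a relative of Tfeb, was the factor that fell in shCtrl cells (−0.33) and was short of the test in the knockdown line (0.19, adjusted p = 0.0728).

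Ratios of related genes within a library do not depend on the scaling of that library. The pairs were chosen after the values were seen and are given without a test. Counts of Atg4c per count of Atg4d averaged 0.33 in shCtrl-CTRL, 0.818 in shCtrl-OGDR, 0.399 in shAnxa2-CTRL and 0.231 in shAnxa2-OGDR, and each of the shCtrl-OGDR libraries lay above all others. Atg4a per Atg4d averaged 0.504 and 1.09 without and after OGD/R in shCtrl cells and 0.904 and 0.459 in shAnxa2 cells, with the limit on Atg4d given above. Atg2a per Atg2b, the lipid transfer pair, was 0.454 and 0.726 in the untreated and treated shCtrl cells and 0.576 and 0.409 in the shAnxa2 cells. Ulk2 per Ulk1 was 0.769 in shCtrl-CTRL, 1.01 in shCtrl-OGDR, 1.33 in shAnxa2-CTRL and 1.03 in shAnxa2-OGDR, and the ranges of the treated groups overlapped. Sqstm1 per Gabarap, a receptor set against its membrane partner, was 1.60 in shCtrl-CTRL, 2.40 in shCtrl-OGDR, 2.56 in shAnxa2-CTRL and 1.98 in shAnxa2-OGDR. It was lowest in all 3 shCtrl-CTRL libraries, whose highest value was 1.65 against a lowest value of 1.94 elsewhere. Map1lc3a per Map1lc3b was 0.087 in shCtrl-CTRL, 0.116 in shCtrl-OGDR, 0.102 in shAnxa2-CTRL and 0.0885 in shAnxa2-OGDR, and Gabarapl2 per Gabarapl1 was 0.285, 0.236, 0.286 and 0.331 in the same order.

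**Figure D5:**
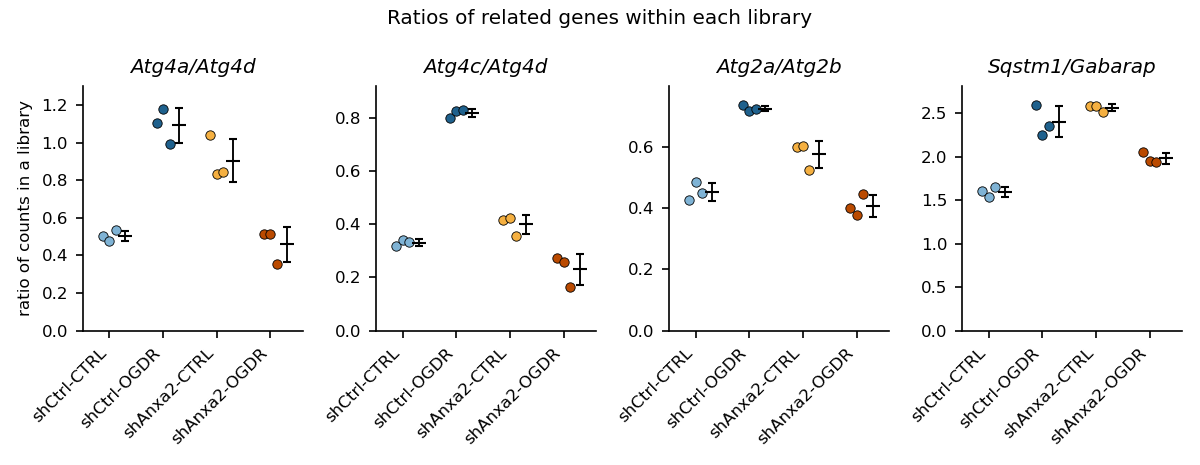
Points show the ratio of counts of 4 gene pairs in each library (vertical axes from 0), by group, with the mean and SD (n = 3) beside them. The shCtrl-OGDR libraries lie above the shCtrl-CTRL libraries in each panel, and the shAnxa2-OGDR libraries lie below the shAnxa2-CTRL libraries.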

How the data were processed

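The authors deposited 1 table of read counts per protein-coding gene for the 12 BV2 libraries, with Ensembl identifiers, and a second block of 12 columns of normalized values that was not used here. The submitters' processing notes name HISAT2 2.0.4 and mm39. The methods written for the hippocampal RNA-seq of the same study name other software, and those hippocampal data were not analysed here. How reads that map to several genes were counted is not given in the sources used here, so genes with near-identical copies are uncertain. The NEBNext Ultra kit does not mark strand. Groups were taken from the sample names.

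Genes with at least 0.5 CPM in at least 3 libraries were kept. Counts were fitted with edgeR 4.0.16 (R 4.3.3) by quasi-likelihood in 1 model of 4 group means with TMM factors, and p-values were adjusted by the Benjamini-Hochberg method over the 11626 genes tested. The standard error is the log2 fold change divided by the square root of F. A gene was called at an adjusted p under 0.05, and the fold limits are an absolute log2 fold change of at least 1 with an unadjusted p under 0.05. The common biological coefficient of variation was 5.35%. Depth ran from 19521877 to 27288843 counts (median 24531756.5). Chi-square per gene between replicates (4.00 to 13.3) exceeded that of counting noise, and no library was a repeat. The procedure was tested on simulated data.

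Alternatives were RLE and upper-quartile factors and library totals only, filters of 1 CPM and none, DESeq2 1.42.0, limma 3.58.1 voom, the compared groups alone, the replicate number as a block, each library left out, an adjusted p under 0.01 and a 1.5-fold limit. Crosswise comparisons and ratios of gene pairs were added after the data were seen. Members and lists were chosen with earlier results of these data known. Values per library are given for the 12 members with the largest interaction, the Atg8 genes, Sqstm1, the members past the fold limits and the largest change in each comparison, and per further list for up to 2 genes in each direction. Among the latter, fold changes are given in place of values per library, and 1 gene of these lists is not reported here. Tables and figures were made with Python 3.11.15, pandas 2.3.3 and matplotlib 3.10.9.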

Additional observations from a re-analysis of the deposited data

Results flagged for a closer look

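By the interaction term of the edgeR fit, the change upon OGD/R differed between the shCtrl and shAnxa2 lines for 28 of the 38 autophagy genes. This share of 73.7% lies near the 70% of all 11626 genes past the same test in either direction. Values are the log2 change in shAnxa2 cells minus that in shCtrl cells. Among the receptors they were −2.10 for Calcoco1, −1.495 for Optn, −1.21 for Nbr1, −0.93 for Sqstm1 and −0.71 for Tax1bp1. In the ULK complex they were −2.09 for Ulk2, −1.28 for Ulk1, −1.12 for Rb1cc1 and −0.82 for Atg13, and in the kinase complexes −0.79 for Atg14, −0.49 for Pik3c3, −0.42 for Pik3r4 and 0.16 for Uvrag. Genes of phagophore growth had −1.61 (Wipi1), −0.93 (Atg2a), −0.59 (Vmp1), −0.48 (Atg9a) and 0.24 (Atg2b). The proteases Atg4c, Atg4a, Atg4b and Atg4d had −1.37, −1.37, −0.32 and 0.74. In the conjugation machinery and the Atg8 family the values were −0.38 for Atg12, 0.26 for Atg3, 0.70 for Atg16l1, −0.57 for Map1lc3a and 0.37 for Gabarapl2, and Stx17 had −0.60.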

How the results depend on the processing

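With 3 libraries a group, small differences rest on single libraries. No called fold change of a single gene changed sign under any of 5548 alternative values, while 130 lost a call, 65 gained one and 99 changed sign with neither value called. Scaling moved the median of all genes by less than 0.1 (log2). The 6 genes higher after OGD/R in shAnxa2 cells became 3 with library totals only, 2 with upper-quartile factors, 2 without a filter and 2 at an adjusted p under 0.01, and 2 to 6 with each library left out (fewest without shAnxa2-OGDR replicate 2). The 6 genes lower in shAnxa2-OGDR than in shCtrl-CTRL became 10 with library totals only and 3 at an adjusted p under 0.01. The 1 gene higher in shAnxa2-CTRL than in shCtrl-OGDR became 3 without a filter and 1 to 3 with each library left out, with 3 without shAnxa2-CTRL replicate 2 and 2 without shAnxa2-CTRL replicate 3 or shCtrl-OGDR replicate 3. A 1.5-fold limit passed 9 genes for OGD/R in shCtrl cells, 6 in shAnxa2 cells, 6 between the untreated lines and 10 between the treated lines. The causes were not tested. All other counts stayed within 1.5 times their value, those of OGD/R in shCtrl cells at 22 to 26 higher and 2 to 4 lower, and of the treated lines at 21 to 25 lower. Same-numbered libraries did not deviate together (r from −0.051 to 0.13, median 0.0020), so the numbers do not pair them, and with the replicate block 27 of the 38 genes were called upon OGD/R in shCtrl cells, as without it, and 28 against 29 between the treated lines.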

Other observations

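Further genes of the pathway, from lists chosen with earlier results known, are given here by count and median. Of 18 tested mitophagy genes and other cargo receptors, 10 rose and 3 fell upon OGD/R in shCtrl cells (median log2 fold change 0.28), whereas 2 rose and 10 fell in shAnxa2 cells, against 32.4% and 31% of all genes in the former and 28.2% and 26.8% in the latter. Bnip3, a hypoxia-induced receptor on mitochondria, was at 1.68 (SE 0.088, adjusted p = 5.34e-14) in shCtrl cells and −2.19 (SE 0.093, adjusted p = 9.92e-15) in shAnxa2 cells by edgeR. Nufip1, a receptor for ribosomes, and Phb2, a receptor of the inner mitochondrial membrane, were lower in shCtrl cells (−0.30 and −0.22) and higher in shAnxa2 cells (0.21 and 0.50). All of these passed the test. Between the treated lines, 2 genes of this list were higher and 12 lower in shAnxa2 cells (median −0.32), against 33.8% and 34.2% of all genes.

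Of 15 tested genes of autophagosome and lysosome fusion, 8 were higher and 3 lower upon OGD/R in shCtrl cells (median 0.14), whereas 4 rose and 6 fell in shAnxa2 cells. These are 53.3% and 20% of the list in shCtrl cells, against 32.4% and 31% of all genes. In shAnxa2 cells they are 26.7% and 40%, against 28.2% and 26.8%, so the share that rose there lies near the background. Tecpr1, a tether of autophagosomes and lysosomes, was at 1.36 (SE 0.052, adjusted p = 2.46e-16) and −0.84 (SE 0.052) in the shCtrl and shAnxa2 lines, and Vps39, a subunit of the HOPS tether, at 0.75 and −0.55. Vps33a, of the same tether, and the SNARE Ykt6 had −0.31 and −0.24 in shCtrl cells and 0.32 and 0.16 in shAnxa2 cells. Of 19 other core factors and regulators of initiation, 11 were higher and 4 lower in shCtrl cells (median 0.25), whereas 3 rose and 10 fell in shAnxa2 cells. That is 57.9% and 21.1% of this list in shCtrl cells and 15.8% and 52.6% in shAnxa2 cells, beside the same shares of all genes. Trp53inp1, which binds LC3, was at 1.30 (SE 0.31, adjusted p = 0.000847) and −2.81 (SE 0.41, adjusted p = 3.44e-06), and Mtmr14, a phosphoinositide phosphatase, at 1.15 (SE 0.056) and −0.56 (SE 0.058). Atg9b, the paralog of Atg9a, and Trim28 were lower in shCtrl cells (−0.69 and −0.50) and higher in shAnxa2 cells (0.26 and 0.59), again all past the test.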
